A study of Mus musculus with 10 samples.

Results

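Hemoglobin and erythroid genes were followed in the nucleus accumbens (NAc), a ventral part of the striatum, of 2 inbred mouse strains. The genes were Hba-a1, Hba-a2, Hbb-bs, Hbb-bt, Alas2 and Slc4a1, and they were picked by symbol as 6 of the 29883 gene rows in the deposited count table. All 6 had a row. They were chosen with the strain difference of these same libraries in view, so the difference between strains is given for them as a description, without a test. The samples were 5 male C57BL/6J (B6) and 5 male DBA/2J (D2) mice, ethanol-naive and 9 weeks old at collection, with 1 library per mouse. Messenger RNA of the micro-dissected NAc was sequenced as stranded, paired-end libraries. Both groups were untreated, so the strain was the only labelled difference between them. The methods do not mention perfusion, and in bulk tissue fewer cells of a type and less RNA per cell cannot be told apart.

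Adult hemoglobin is a tetramer of 2 alpha and 2 beta chains, each holding a heme group. In the mouse the alpha chains come from a pair of neighbouring genes, Hba-a1 and Hba-a2, and the beta chains from another pair. The beta pair differs between strains as a haplotype: B6 carries the single haplotype, whose genes are Hbb-bs and Hbb-bt, and D2 carries the diffuse haplotype, with copies known as Hbb-b1 and Hbb-b2. Alas2 encodes the erythroid form of the first enzyme of heme synthesis, and Slc4a1 encodes band 3, the anion exchanger of the red cell membrane. These transcripts are abundant in maturing red cells and reticulocytes, which reach brain tissue in blood.

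The reads were aligned by the authors to the B6 genome, so a read from D2 was placed on whichever B6 copy it matched. On GRCm39 with the GENCODE vM39 annotation, Hba-a1 lay at chr11:32233186-32234504 and Hba-a2 at chr11:32246168-32247320, both on the plus strand. Hbb-bs lay at chr7:103475730-103482989 and Hbb-bt at chr7:103461727-103465047, both on the minus strand. Alas2 lay at chrX:149330371-149353634 on the plus strand, overlapping Apex2 on the opposite strand, and Slc4a1 at chr11:102239650-102257029 on the minus strand. The strand setting of the counting is not given in the sources used here.

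The reference copies within a pair were nearly the same in sequence, and the stretches around their differing coding base show how little a read has to tell them apart. The coding sequences of Hba-a1 and Hba-a2, 429 bases each, differed at 1 base, C381T, counted from the A of the start codon with the Hba-a1 base first. The base lies in exon 3, at position 32234343 in Hba-a1 and 32247160 in Hba-a2, and the change is synonymous. Coding bases 341 to 421 follow 5′ to 3′, from chr11:32234303-32234383 and chr11:32247120-32247200, with the differing base in capitals.
Hba-a1: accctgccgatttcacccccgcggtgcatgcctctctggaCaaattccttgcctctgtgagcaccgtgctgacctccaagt
Hba-a2: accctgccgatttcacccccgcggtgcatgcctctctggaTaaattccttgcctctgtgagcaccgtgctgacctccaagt

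The coding sequences of Hbb-bs and Hbb-bt, 444 bases each, also differed at 1 base, C417T, in exon 3 at position 103475899 in Hbb-bs and 103461890 in Hbb-bt, again without a change of amino acid. Coding bases 377 to 441 follow 5′ to 3′ on the gene's strand, from chr7:103475875-103475939 and chr7:103461866-103461930.
Hbb-bs: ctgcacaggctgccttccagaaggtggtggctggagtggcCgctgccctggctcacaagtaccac
Hbb-bt: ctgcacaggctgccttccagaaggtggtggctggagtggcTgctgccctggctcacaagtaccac

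The predicted proteins were identical within each pair, 142 residues for the alpha copies and 147 for the beta copies. Only the beta pair differed in the aligned bases of its untranslated ends. The aligned 3′ UTR bases of the alpha copies were identical, and the annotated UTRs differed only in length, by 68 bases at the 5′ end and 23 at the 3′ end. The beta copies shared 80.46% of aligned 5′ UTR bases and 72.52% of aligned 3′ UTR bases. Of all windows as long as a read in the spliced Hba-a1 transcript, 62.82% occurred without a mismatch in Hba-a2, and 72.09% of those in Hba-a2 occurred in Hba-a1. The shares were 54.95% for Hbb-bs and 50.63% for Hbb-bt, and 0 for Alas2 and Slc4a1. These windows treat each read alone. The libraries were paired-end, so the mate of a read that fits both copies may reach a differing base. How the counting treated reads that fit both copies is not given in the sources used here, so the split between the copies of a pair is less certain than their sum. The sum does not depend on which copy a read was given to. It would still lack any reads dropped because they fit both copies, and whether such reads were dropped is not known. The D2 sequence of these genes was not analysed here.

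**Figure D1:**
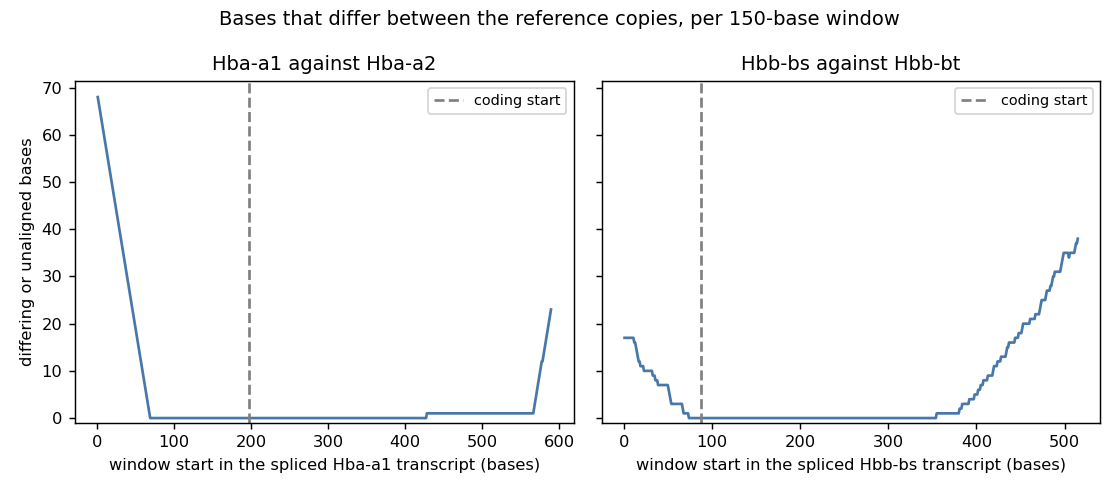
Bases that differ or do not align between the reference copies (y) in each window of the read length, against the start of the window in the spliced transcript in bases (x), with the coding start dashed. The curve lies at 0 through most of the alpha coding sequence, and the beta copies part in their 3′ UTR, where 36 of 131 aligned positions differ.

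Promoters are shown because the members of a pair share them to different degrees. The 120 bases before the RefSeq transcript start were taken from the RefSeq promoter table for GRCm38.p6, which held 5 of the 6 genes. They were placed on GRCm39 by exact match. The alpha sequences each matched at 2 places on their chromosome and were assigned by overlap with the gene. Capitals mark 4 short motifs on either strand: the letters CACCC, the CCAAT box, the TATA-like ATATAA and the GATA-type AGATAA. Where matches on opposite strands overlap, as for the CCAAT box in Hbb-bt, they form 1 run of capitals. The RefSeq starts differ from the GENCODE gene bounds given above. The globin stretches lie inside the GENCODE spans of their genes, and the Alas2 stretch crosses the start of its span. In order, the stretches lie at chr11:32233552-32233671, chr11:32246372-32246491, chr7:103477136-103477255, chr7:103463131-103463250 and chrX:149330293-149330412.
Hba-a1: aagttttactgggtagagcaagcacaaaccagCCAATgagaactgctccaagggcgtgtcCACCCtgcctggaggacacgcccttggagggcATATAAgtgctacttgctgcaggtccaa
Hba-a2: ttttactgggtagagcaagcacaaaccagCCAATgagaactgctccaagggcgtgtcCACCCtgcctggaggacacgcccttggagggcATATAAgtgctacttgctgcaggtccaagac
Hbb-bs: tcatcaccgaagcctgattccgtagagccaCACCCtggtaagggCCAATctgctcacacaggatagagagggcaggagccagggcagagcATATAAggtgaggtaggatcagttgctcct
Hbb-bt: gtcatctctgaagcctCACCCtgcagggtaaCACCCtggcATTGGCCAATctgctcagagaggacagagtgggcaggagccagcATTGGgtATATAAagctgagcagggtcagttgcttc
Alas2: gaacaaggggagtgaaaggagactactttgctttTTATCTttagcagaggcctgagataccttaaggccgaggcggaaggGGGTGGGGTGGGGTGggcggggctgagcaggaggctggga

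Over 250 bases before the start, the alpha promoters aligned at 247 positions with 0 mismatches and 6 gap positions. Each alpha stretch of this length occurred without change at 2 places on the chromosome. The beta promoters were identical at 71.72% of aligned positions. ATATAA stood 28 to 31 bases before the start in all 4 globin genes, and 9.1% of 32851 promoters held it in the same length of sequence. CACCC was found in 52.01% of all promoters, CCAAT in 33.85% and AGATAA in 9.99%. Hbb-bt held 3 CCAAT matches and Hbb-bs 1. The Alas2 promoter held 3 CACCC matches and 1 AGATAA match, all on the reverse strand. A match is a description of the letters and not of a bound site.

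The libraries held 96977262 to 111468080 counted reads in B6 and 104443243 to 116776714 in D2. B6 replicates 3 and 5 stood apart from the other B6 libraries, with mean chi-squares of 85.49 to 118.9 per gene against them. Between replicates 3 and 5 the mean chi-square was 4.886, more than counting noise but the lowest of all library pairs within a strain. Markers of cortical projection neurons, which the NAc should largely lack, summed to 895.0 and 907.5 CPM (counts scaled to a common library size) there, against 71.15 to 152.6 in the other 3 B6 libraries and 205.2 to 559.2 in D2. The same 2 libraries were the lowest of all 10 in choroid plexus markers, at 19.2 and 20.02 CPM. They were also the lowest in the summed platelet markers, mostly Itga2b, at 4.266 and 4.267 CPM. They were the highest of all 10 in endothelial markers, at 266.4 and 272.4 CPM, in white blood cell markers, at 5.593 and 5.448 CPM, and, as given with the values of each gene, the highest of the B6 libraries in all 6 genes. Whether the dissection or the content of blood and vessels moved the globin level was not tested, and values without them are given beside the results they move. Without them the B6 mean of the 4 summed globin genes was 75.47 ± 8.72 CPM (SD, n = 3).

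Hba-a2 was the gene with the widest gap between strains. The B6 mice had 8.51, 7.18, 11.1, 10.2 and 10.9 CPM for replicates 1 to 5, from 750 to 1142 reads, and the D2 mice 0.212, 0.172, 0.227, 0.174 and 0.293 CPM, from 19 to 31 reads. The highest D2 mouse lay far below the lowest B6 mouse. The means were 9.58 ± 1.69 CPM in B6 and 0.216 ± 0.0493 CPM in D2 (SD, n = 5 each), a 44.4-fold difference, and the edgeR log2 fold change, D2 against B6, was -5.47 ± 0.17 (SE). It was -5.32 without B6 replicates 3 and 5.

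Hba-a1, the other alpha copy, overlapped between strains. Its CPM was 18.0, 18.4, 23.5, 22.4 and 23.8 in B6 and 28.4, 19.4, 24.6, 14.8 and 25.4 in D2. Both the highest and the lowest of the 10 mice were D2 mice, replicates 1 and 4. The log2 fold change was 0.09 ± 0.15 (SE), from means of 21.2 ± 2.82 and 22.5 ± 5.38 CPM. It was 0.20 without B6 replicates 3 and 5, and ran from -0.01 without D2 replicate 1 to 0.20 without D2 replicate 4, so no direction is given for it.

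Hbb-bs had the highest level of the 6 genes in both strains. The B6 mice had 38.2, 41.4, 55.0, 47.7 and 52.1 CPM and the D2 mice 43.8, 33.1, 38.2, 24.3 and 43.8 CPM. The ranges overlapped, with D2 replicate 4 lowest. The log2 fold change was -0.36 ± 0.15 (SE), and -0.21 without B6 replicates 3 and 5.

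Hbb-bt, the minor beta copy, was lower in every D2 mouse than in any B6 mouse. Its CPM was 4.66, 4.64, 6.40, 5.15 and 6.77 in B6 and 2.91, 2.10, 2.21, 1.58 and 2.65 in D2. The means, 5.53 ± 0.998 and 2.29 ± 0.515 CPM, differed 2.41-fold, and the log2 fold change was -1.27 ± 0.16 (SE), or -1.07 without B6 replicates 3 and 5. Because D2 carries the diffuse haplotype, the D2 values of Hbb-bs and Hbb-bt count D2 reads placed on these B6 copies. Placement and a different level of a copy cannot be told apart here.

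**Figure D2:**
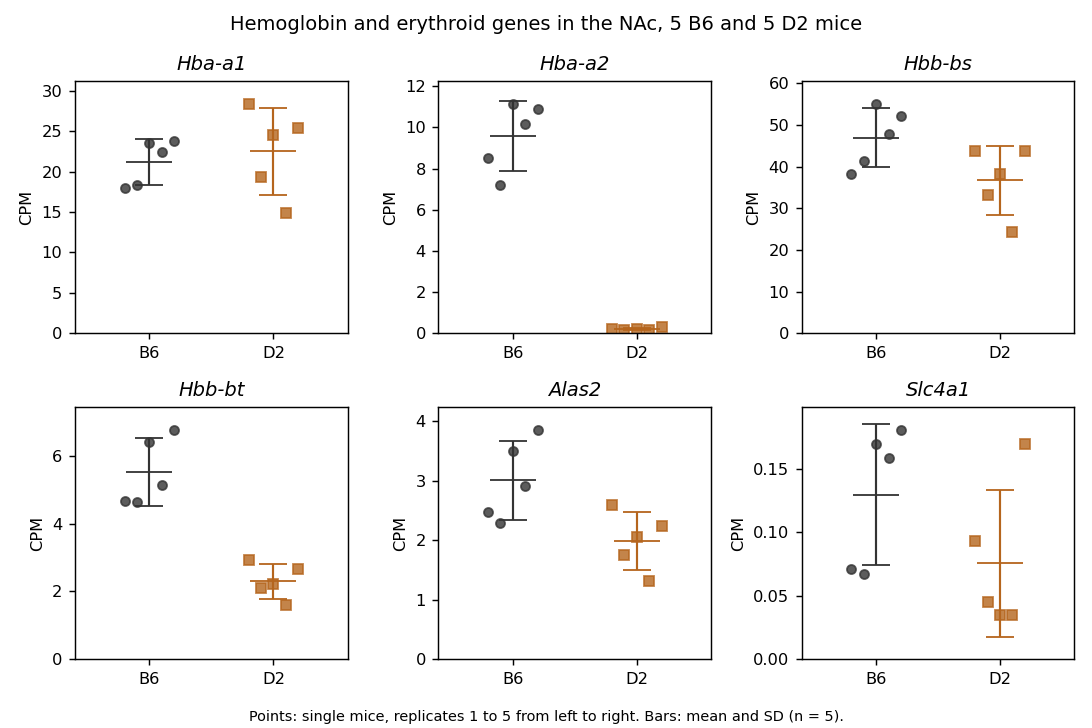
CPM (y, linear, each gene on its own scale from 0) of the 6 genes in the 5 B6 and 5 D2 mice (x); points are mice and bars the mean and SD. The strains do not overlap for Hba-a2 and Hbb-bt and overlap for the other 4 genes.

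Within each mouse, the copies of a pair were set against each other, which takes library depth out of the comparison. Hba-a2 took 32.1, 28.1, 32.2, 31.2 and 31.3% of the alpha reads in the B6 mice and 0.743, 0.880, 0.917, 1.16 and 1.14% in the D2 mice. The 95% Wilson intervals, which cover counting error only, ran from 26.44 to 33.8% over the B6 mice and from 0.5036 to 1.784% over the D2 mice. Hbb-bt took 10.9, 10.1, 10.4, 9.74 and 11.5% of the beta reads in B6 and 6.24, 5.96, 5.48, 6.11 and 5.71% in D2, with intervals from 8.97 to 12.31% and from 4.86 to 7.03%. Neither share overlapped between the strains. Relative to its mean, the Hba-a2 share varied by 5.37% in B6 and 18.41% in D2 (coefficient of variation, n = 5 each), and the Hbb-bt share by 6.54% and 5.174%.

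The counted alpha and beta reads kept the same proportion in both strains. Per 100 beta reads, the B6 mice had 58.9 ± 2.93 alpha reads and the D2 mice 58.3 ± 2.97 (SD, n = 5 each), with ranges of 55.49 to 61.91 and 55.3 to 61.4. The makeup of the alpha reads differed: per 100 beta reads, Hba-a1 contributed 40.6 ± 1.68 in B6 and 57.7 ± 3.00 in D2, and Hba-a2 contributed 18.3 ± 1.63 and 0.561 ± 0.0918. Every D2 mouse had more Hba-a1 per beta read than every B6 mouse. Placement of D2 reads on one B6 copy and a different level of that copy cannot be told apart in these counts.

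**Figure D3:**
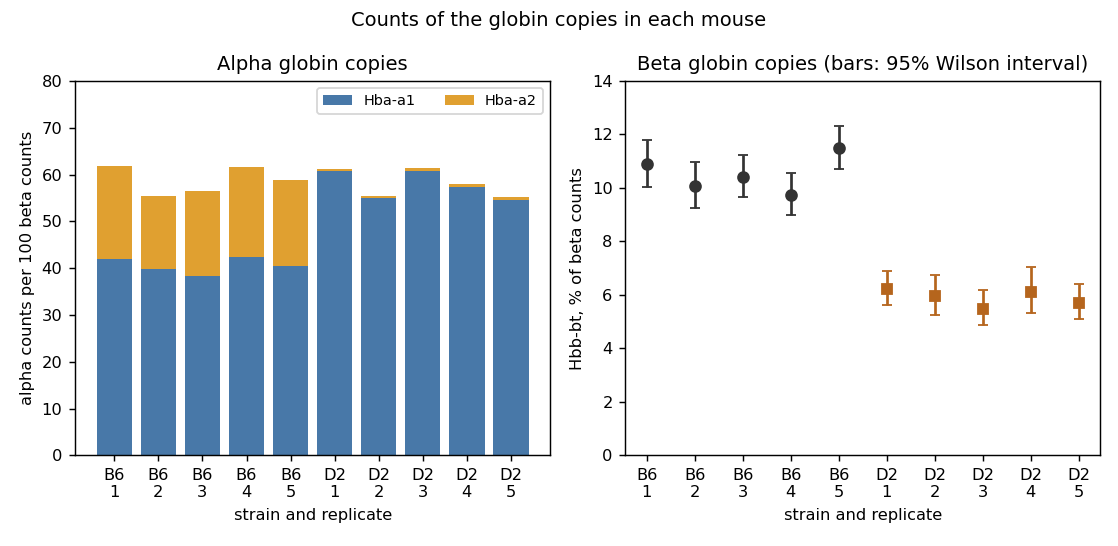
Left, Hba-a1 and Hba-a2 reads per 100 beta reads, stacked, in each mouse; right, Hbb-bt as a percent of beta reads with 95% Wilson intervals. The stacked height spans 55.3 to 61.91 in all 10 mice, while Hba-a2 falls from 15.6 or more in B6 to 0.6716 or less in D2.

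Summed over copies, the counted globin reads were lower on average in D2, with overlapping mice. The 4 genes together reached 69.37 to 96.04 CPM in B6, mean 83.2 ± 12.3, and 40.93 to 75.32 CPM in D2, mean 61.7 ± 14.02 (SD, n = 5 each). The log2 fold change was -0.43 ± 0.15 (SE) for the 4 genes, -0.44 ± 0.15 for the alpha sum and -0.43 ± 0.15 for the beta sum. Without B6 replicates 3 and 5 these were -0.29, -0.31 and -0.28. None of the sums had an adjusted p under 0.05 in the edgeR fit with all mice, while each did with DESeq2. Reads of D2 that did not align to the B6 genome, or were dropped because they fit both copies, would be missing from these sums. Whether such a loss differed between the strains was not tested.

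Alas2 was lower on average in D2, with overlap. Its CPM was 2.47, 2.29, 3.50, 2.91 and 3.86 in B6 and 2.60, 1.75, 2.06, 1.31 and 2.24 in D2. D2 replicate 1 lay above 2 of the B6 mice. The log2 fold change was -0.59 ± 0.19 (SE). It was -0.36 without B6 replicates 3 and 5, and from -0.71 to -0.48 when 1 mouse was left out. Set against the globins of the same mouse, Alas2 gave 35.9 ± 3.44 reads per 1000 globin reads in B6 and 32.2 ± 1.36 in D2. This ratio shares the limit of the globin sums.

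Slc4a1 was near the limit of counting. It had 8, 7, 16, 16 and 19 reads in the B6 libraries and 11, 5, 4, 4 and 18 in the D2 libraries. The ranges overlapped, and D2 replicate 5 held nearly as many reads as the highest B6 mouse. The log2 fold change was -0.77 ± 0.48 (SE), -0.39 without B6 replicates 3 and 5 and -1.28 without D2 replicate 5.

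Of the 6 genes, 3 (Hba-a2, Hbb-bt and Alas2) had an adjusted p under 0.05 in the edgeR fit over all genes, all lower in D2, and 2 did not overlap between strains. Of all genes tested, 18.3% were called, 9.83% lower and 8.5% higher in D2, and 16.0% did not overlap. The genes were chosen on this contrast, so nothing is read from their count. Alas2 leaves the count without B6 replicates 3 and 5 together, and without any 1 of B6 replicates 3, 4 and 5 or D2 replicates 2, 3, 4 and 5.

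Per kilobase of transcript, the B6 mean levels ran from Hbb-bs at 70.6 CPM per kb through Hba-a1 at 28.8, Hba-a2 at 14.8, Hbb-bt at 7.85 and Alas2 at 1.48 to Slc4a1 at 0.0285. No neighbours in this order overlapped among the B6 mice. In D2 the order was Hbb-bs at 55.2, Hba-a1 at 30.5, Hbb-bt at 3.26, Alas2 at 0.976, Hba-a2 at 0.333 and Slc4a1 at 0.0167. The D2 ranges of Hbb-bs and Hba-a1 overlapped, from 36.65 to 65.99 and from 20.11 to 38.46 CPM per kb, and the other neighbours did not. Reads that fit both copies of a globin pair may be missing or placed on the other copy. Both orders therefore describe counted reads and need not be the order of the transcripts.

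Within a strain, most of the 6 genes followed the same course over the mice. The log2 CPM of the 4 summed globin genes deviated from its strain mean by -0.25, -0.20, 0.22, 0.05 and 0.18 in B6 replicates 1 to 5 and by 0.32, -0.14, 0.11, -0.56 and 0.26 in D2. Hbb-bs, Hba-a1, Hbb-bt and Alas2 were the 4 genes closest to this course among the 19417 genes averaging 20 counts or more, with root mean square differences of 0.0256, 0.0388, 0.0795 and 0.0877 on the log2 scale over the 10 mice. Hbb-bs, Hba-a1 and Hbb-bt are terms of the sum they were compared with, and Hbb-bs and Hba-a1 make up most of it, so their places are in part built in. Slc4a1 fell below 20 counts and was not ranked. The median over all genes was 0.2891, and a gene with no deviation in any mouse would stand at 0.2651. Hba-a2 stood at 0.173, rank 46, where its low D2 level was set against a pseudocount of 0.1 CPM. The 5 closest genes outside the 6 were Tpm2, which encodes a muscle-type tropomyosin, at 0.1075, Gm50335 at 0.1202, Gdf10, a growth factor of the TGF-beta family, at 0.1208, Ap1m2 at 0.123 and Ninj2 at 0.1245. All points share their libraries, and no test was made of this likeness.

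**Figure D4:**
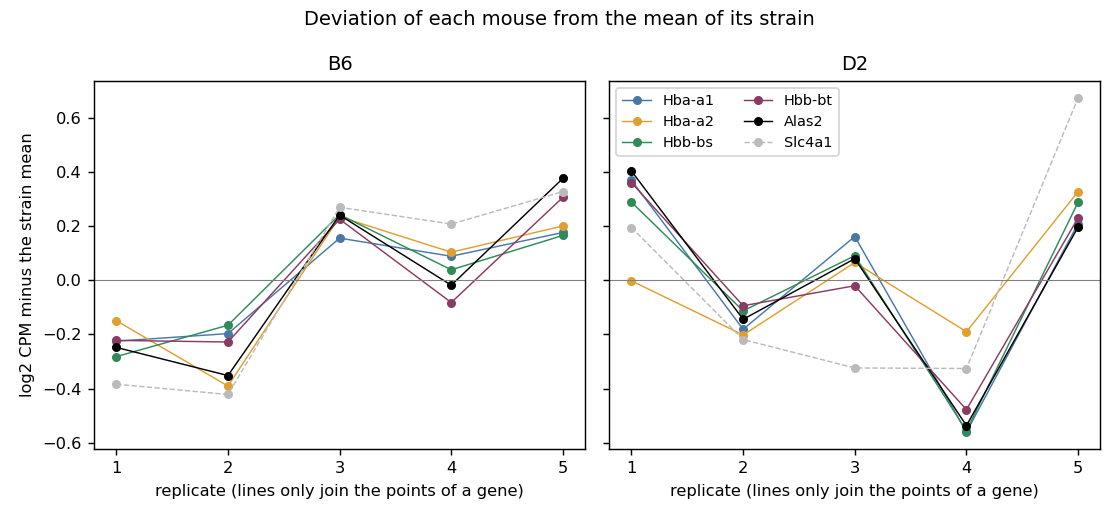
Log2 CPM minus the mean of the strain (y) for the 6 genes in each replicate (x), B6 left and D2 right. D2 replicate 4 lies lowest for Hba-a1, Hbb-bs, Hbb-bt and Alas2, and B6 replicates 3 and 5 lie above 0 for all 6 genes.

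Other erythroid genes, outside the 6, were called about as often as all genes. Their lists, like the 6 genes, were chosen with earlier results of these data known. Of 53 genes in 3 lists (membrane and cytoskeleton, transcription factors with the erythropoietin receptor, and cytosol with late red cell genes), 48 were in the table, 2 were higher and 7 lower in D2 and 39 were not called. That is 18.75% called against 18.3% of all genes, and the median log2 fold change was -0.06 against 0.004 for all genes. Lower genes made up 7 of these 9 calls, against 53.61% of the calls among all genes, and no set test was made. Ahsp, Rhag, Kel, Gata1 and Cldn13 had no row in the table used and were not analysed here. Many genes of these lists are also expressed by brain cells.

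Among membrane genes, Tmod1, a cap of actin filaments, fell from 102.9 to 69.69 CPM (log2 fold change -0.56 ± 0.05 SE, edgeR adjusted p = 3.9e-06). Epb42, red cell protein 4.2, fell from 15 summed reads in B6 to 2 in D2 (adjusted p = 0.0218), and Rhd, the Rh blood group gene, rose from 25 to 82 (adjusted p = 0.0296). Epb42 did not pass without B6 replicate 2, nor Rhd without B6 replicate 4 or 5 or D2 replicate 2, 3 or 5. Add2, a spectrin-binding adducin and the most counted gene of the list, did not pass.

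Of the transcription factors, Lmo2, a bridging protein of the erythroid complex, fell from 33.83 to 27.73 CPM (adjusted p = 0.00141), and Zfpm1, the GATA1 cofactor FOG1, fell by 0.22 on the log2 scale (adjusted p = 0.0144) but not past the threshold without B6 replicates 3 and 5. Klf1, the activator of adult beta globin, had 64 and 95 summed reads and did not pass, nor did Ldb1, the most counted of this list. Among cytosolic genes, Car2, a carbonic anhydrase that oligodendrocytes also make, rose from 143.9 to 206.9 CPM (adjusted p = 1.86e-04). Isg20, an exonuclease, fell from 332 to 169 summed reads (adjusted p = 0.00253), Tspo2 from 27 to 5 (adjusted p = 0.0356) and Trim10 from 46 to 18 (adjusted p = 0.0452). Tspo2 did not pass without B6 replicate 1, 2, 4 or 5 or D2 replicate 1, 2 or 3. Trim10 did not pass without B6 replicate 2 or 5 or any 1 D2 mouse, nor without B6 replicates 3 and 5 together.

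Heme synthesis and iron supply genes were called in 5 of 14 cases, 4 higher and 1 lower in D2. That is 35.71% called against 18.3% of all genes, and no set test was made. Alad, the enzyme after Alas2 in heme synthesis, had the largest change, from 17.94 to 47.62 CPM, a log2 fold change of 1.41 ± 0.04 (SE, edgeR adjusted p = 4.5e-10), and the D2 mice all lay above the B6 mice. Alas1, the housekeeping counterpart of Alas2, rose by 0.15 (adjusted p = 0.0184) and the mitochondrial transporter Abcb10 by 0.14 (adjusted p = 0.035). Alas1 did not pass without D2 replicate 3, nor Abcb10 without B6 replicate 1, 3 or 4 or D2 replicate 1, 2, 3 or 4. The transferrin receptor Tfrc, the most counted gene of the list, did not pass. In heme and hemoglobin clearance, Flvcr1, a heme exporter, rose by 0.32 (adjusted p = 7.0e-04) and the hemopexin receptor Lrp1 by 0.18 (adjusted p = 0.0116), while the heme transporter Slc48a1 fell by 0.17 (adjusted p = 0.0367) with all mice. Slc48a1 did not pass without B6 replicate 2, 3 or 5 or D2 replicate 2, 3, 4 or 5, nor without B6 replicates 3 and 5 together. The other 8 of 11 were not called.

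Of the remaining globins, the theta globins Hbq1a and Hbq1b, which lie within or beside the alpha cluster, were both higher in D2. Hbq1a rose from 69 to 231 summed reads, a log2 fold change of 1.62 ± 0.31 (SE, edgeR adjusted p = 0.00213), and Hbq1b from 21 to 82 (adjusted p = 0.0289), though Hbq1b did not pass without B6 replicate 1, 2 or 4 or D2 replicate 2, 4 or 5. Hba-x, Hbb-y and the other genes of the beta cluster had no row in the table used and were not analysed here. Neuroglobin, cytoglobin (Cygb), myoglobin and androglobin, the 4 globins outside the clusters, were not called. Among 9 relatives of Slc4a1, Slc4a2 was lower (log2 fold change -0.29, adjusted p = 0.0217), which was lost without B6 replicates 3 and 5 or without D2 replicate 2, 4 or 5, and Slc4a3 higher (0.16, adjusted p = 0.00468). Slc4a4, the bicarbonate cotransporter of astrocytes and the most counted, did not pass.

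**Figure D5:**
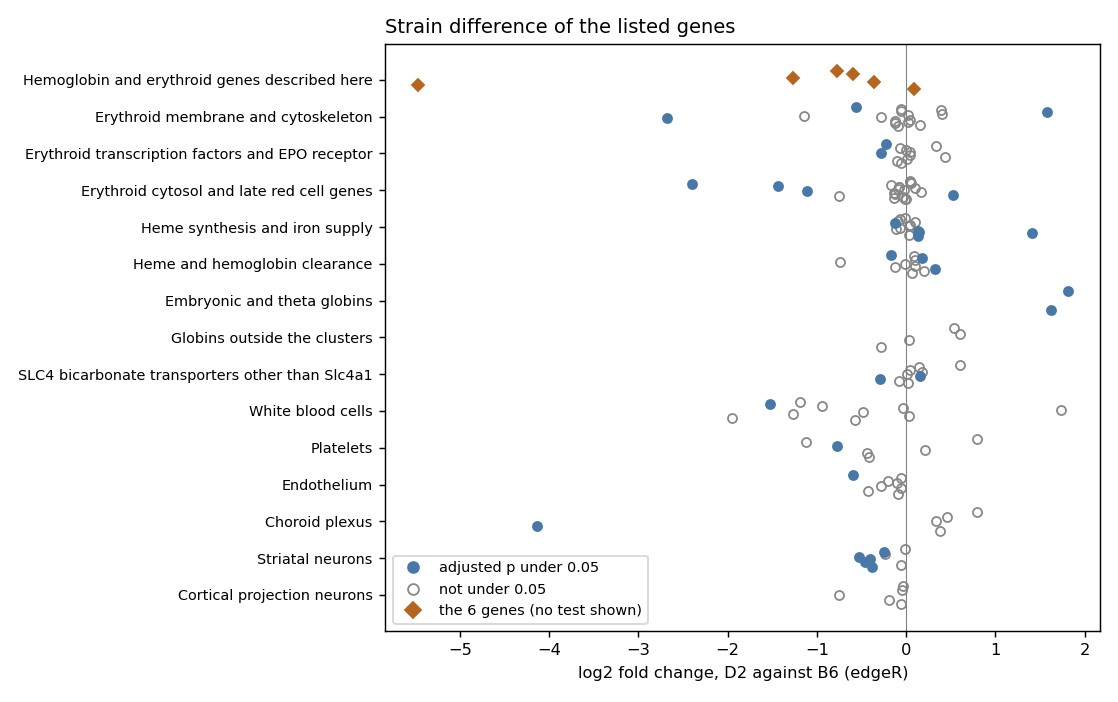
Log2 fold change, D2 against B6 (x), of each gene in the lists (y); filled circles have an edgeR adjusted p under 0.05 and diamonds are the 6 genes, without a test. The medians of the 3 erythroid lists lie between -0.078 and -0.001, with single genes from -2.68 (Epb42) to 1.58 (Rhd), and Hba-a2 lies at -5.47.

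Genes near the clusters were compared next. Within 500 kb of the alpha cluster, 18 tested genes lay outside the 6. Of these, 5 were called higher and 3 lower in D2, where 18.3% of all genes were called. No set test was made. Nprl3, whose introns hold the alpha globin enhancers, lay 15467 bases away and fell from 39.05 to 34.7 CPM (log2 fold change -0.17 ± 0.04 SE, edgeR adjusted p = 0.012), a call lost when libraries were scaled by total counts. Rhbdf1, beyond Nprl3, rose from 10.1 to 19.09 CPM (adjusted p = 8.6e-09), and the pseudogene Gm12109 rose by 3.31 on the log2 scale (adjusted p = 8.0e-07). Near the beta cluster, 7 genes were tested and 4 were called. The 4 called genes lay 410674 to 495689 bases from the cluster. Trim12a, Trim5 and Trim34a were lower, by -7.30, -3.72 and -1.23 on the log2 scale (adjusted p = 1.2e-09, 1.7e-07 and 1.9e-04), and Trim34b was higher by 3.99 (adjusted p = 2.3e-07). These are related copies of one gene family, so reads may be split among them in ways these counts do not show. The nearest tested genes, Dnajc19-ps, Olfm5 and Trim6, did not pass.

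Markers of other cells that travel with blood or line vessels were set beside the globins. The summed level of 10 white blood cell markers ran from 4.376 to 5.593 CPM in B6 and from 4.343 to 5.108 in D2; S100a8, a neutrophil protein, was called lower (77 and 29 summed reads, edgeR adjusted p = 0.0469), which was lost without B6 replicates 3 and 5 together and without any 1 of B6 or D2 replicates 2 to 5. Ptprc, which microglia also express, made most of that sum and did not pass. Of 6 platelet markers, with sums of 4.266 to 5.059 and 4.689 to 5.266 CPM, only Pf4 was called. It was lower in D2 (166 and 105 summed reads, edgeR adjusted p = 0.0106). The other 5, among them the most counted, Itga2b, were not called. Itga2b made most of the platelet sums, with means of 3.598 CPM in B6 and 4.176 CPM in D2. Pf4, Ppbp, Gp9 and Gp1bb had lower mean CPM in D2, and Itga2b and Treml1 had higher. Of 8 endothelial markers, with sums of 218.3 to 272.4 and 179.9 to 236.4 CPM, Vwf alone was called, falling from 19.67 to 12.97 CPM (adjusted p = 0.00583), and the most counted, Flt1, did not pass. The part of blood content in the globin levels was not tested.

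Markers of the tissue itself were compared as well. Of 8 striatal neuron markers, 5 were called, all lower in D2. That is 62.5% against 18.3% of all genes called, and no set test was made. Among the 5 were the dopamine receptor Drd2 (log2 fold change -0.46, edgeR adjusted p = 8.6e-06) and the opioid precursor Penk (-0.52, adjusted p = 0.00737). Ppp1r1b, the most counted, did not pass with all mice (-0.23) and was called without B6 replicates 3 and 5 (-0.31). Of 5 choroid plexus markers, Folr1 was called lower, with 26 and 1 summed reads, and Clic6, the most counted, did not pass, at 0.37 with all mice and 0.02 without B6 replicates 3 and 5. None of 5 cortical markers was called with all mice. Without B6 replicates 3 and 5, Slc17a7 was called 2.07 higher in D2 on the log2 scale.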

How the data were processed

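Each of the 10 NAc libraries came from a separate male mouse, 5 per strain. Per the labels and the study's methods, the authors trimmed reads with fastp, aligned them with STAR 2.7.10b to the B6 genome (GRCm39), used SAMtools 1.6 and made the deposited counts per gene with featureCounts, dropping genes with a median count of 0. The deposited table held raw counts for 29883 genes, of which 29519 were found in GENCODE vM39. The authors' own mean and median columns were not used.

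Counts were fitted with edgeR 4.0.16 (TMM scaling, quasi-likelihood test, two-sided, Benjamini-Hochberg adjustment over all genes, threshold 0.05). CPM used TMM-scaled library sizes, and log2 values of single mice a pseudocount of 0.1 CPM. In simulated counts for this comparison, 153 of 200 genes changed by a log2 of 1 were found among 29883, with 6 false calls. Mice are taken as replicates because the labels name them as separate. P-values set the strain difference against the spread between these libraries.

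The 6 genes and the lists were chosen with earlier results of these data known. Besides the 6 genes, the text names in each list up to 3 called genes with the largest changes and the gene with the highest mean count, near each cluster the 3 nearest and the 3 largest called changes, and the 5 genes closest in course to the summed globins. Klf1, Rhbdf1 and Trim34a were named after their values were seen, and some genes that the rule names are not reported here. Lists covered other erythroid genes, heme, other globins, SLC4 transporters, white blood cells, platelets, endothelium, choroid plexus, striatal and cortical neurons. The alternatives were DESeq2 1.42.0, other scalings, filterByExpr, leaving out mice, a replicate block, shorter windows and counts per base. Leaving out B6 replicates 3 and 5 together and a pseudocount of 0.01 were added after seeing the data.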

Additional observations from a re-analysis of the deposited data

Results flagged for a closer look

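In 32 groups of 5 mice, each a gene, sum, share or ratio within a strain, 2 held a mouse that stood apart by Dixon's criterion for 5 samples (gap over range above 0.71). Chance alone flags about 1 in 20 such groups. In D2, replicate 1 had 34.51 Alas2 reads per 1000 globin reads, with a gap over range of 0.749, against 31.02 to 31.89 in the other D2 mice. In B6, replicate 2 had 28.11% of alpha reads on Hba-a2, with a gap over range of 0.76, against 31.2 to 32.17% in the other B6 mice.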

How the results depend on the processing

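As a description, Hba-a2 and Hbb-bt had log2 fold changes from -5.60 to -5.40 and from -1.37 to -1.16 when 1 mouse was left out. Hba-a1 ran from -0.01 to 0.20, Alas2 from -0.71 to -0.48 and Slc4a1 from -1.28 to -0.59, its lowest value being that without D2 replicate 5. The number of genes called was 5478, and 4636 to 5676 when 1 mouse was left out, 6208 with DESeq2 and 5745 without B6 replicates 3 and 5. Leaving out these 2 libraries, an alternative chosen after seeing the data, changed the sign of Slc17a7, from -0.05 to 2.07 on the log2 scale, and ended the calls of Alas2, Zfpm1, Trim10, Slc48a1, Slc4a2 and S100a8, while Ppp1r1b became called. It moved Hbq1b from 1.81 to 3.42. Counted per base, Hba-a2's share of alpha differed by -32.76 percentage points in place of -30.02. With windows of 50 bases, 82.73% of Hba-a1, 91.64% of Hba-a2, 62.28% of Hbb-bs and 58.17% of Hbb-bt windows occurred in the other copy, and with 100 bases 73.55% of Hba-a1 and 81.75% of Hba-a2, since shorter windows span fewer differences.

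Of 714 values of the 45 other named genes under the alternatives, 640 kept their direction and side of the threshold, 66 fell short of it, 7 newly passed it and 1 reversed. Replicate numbers did not pair the mice (correlations of same-numbered deviations 0.246, -0.343, 0.226, 0.067 and -0.21). With the replicate block 4731 genes were called, Hba-a2 changed by -5.47, Hbb-bt by -1.28 and Alas2 by -0.60. Epb42, Rhd, Tspo2, Trim10, Abcb10, Slc48a1 and S100a8 were not called with the block. The pseudocount of single-mouse log2 values was first set at 0.1; after the ranks had been seen, 0.01 was also tried. It moved Hba-a2 from 0.173 (rank 46) to 0.1711 (rank 42) and put Gm37795, at 0.1257, ahead of Ninj2, at 0.1285, as the fifth closest gene outside the 6. Counting error limits Slc4a1, with 4 to 19 reads a library, and Hba-a2 in D2.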
